A study of Mus musculus with 8 samples.

Results

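The comparison set mesothelial cells (MC) of uninjured adult mouse liver against whole adult mouse liver, 2 of the 8 microarrays of a study of collagen-producing liver cells. MC were cells purified by the membrane glycoprotein GPM6A from adult Col1a1-GFP transgenic mice, in which a Col1a1 promoter drives green fluorescent protein, on a C57Bl6 background. The transgene is given by the genotype label of the MC array, while its source label names only adult mouse liver, so the genotype of these cells is not certain. Whole liver was tissue of an adult wild type C57Bl6 mouse without the transgene and without cell purification. No injury is stated for either group, and each is 1 array, so there is no replicate error, no test was possible and every difference below is a difference between single arrays. The pair differed at once in cell composition, by the labels in genotype, and in the handling that cell isolation brings, and these cannot be told apart. The number of mice behind the MC array was not given in the sources used here. The other 6 arrays, named where they are used, hold hepatic stellate cells (HSC), VitaminA-GFP+ cells and portal fibroblasts after sham surgery (PF sham), together with HSC, portal fibroblasts and MC of biliary fibrosis.

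The mesothelium is the single layer of flat cells that covers the liver and faces the peritoneal cavity. It is of mesodermal origin yet carries epithelial features such as keratins, tight junctions, apical microvilli and a basement membrane, and it makes a slippery coat of glycoproteins and hyaluronan. Mesothelial cells are also known to secrete protease inhibitors, fibrinolytic factors and matrix. Whole liver RNA, in contrast, comes largely from hepatocytes, which make plasma proteins, urea, glucose, bile acids and drug-metabolizing enzymes.

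Total RNA was amplified from 20 ng, labelled with biotin and hybridised. The authors deposited normalized fluorescence intensities, and log2 was taken here before the difference MC minus whole liver was formed. Below, plain values of a gene are intensities in the authors' normalized units, and a value in brackets on its own or after the intensities is the log2 difference. A range over probe sets is the range of that difference. Of 45101 probe sets, 38011 name 1 gene, and they represent 20677 genes, each by its probe set with the highest mean over the 8 arrays. To be called higher or lower, a gene had to lie at least 4-fold apart on the 2 arrays, a log2 difference of 2, and its brighter array had to reach the median intensity of that array, 45.95 in MC and 39.62 in whole liver. By this rule 1816 genes (8.78%) were higher in MC and 2355 (11.4%) were lower, together 20.2% of all genes, and the median difference of all genes was -0.04. Counts of list members below are to be read beside these shares, which some of the counts lie close to. The lower side reached further: 135 genes were higher and 394 lower by at least 6 log2 units, and 17 were higher and 160 lower by at least 8. The deposited files give no detection calls, so how much of a low intensity is background is not known, and the large differences rest on such low values on 1 of the 2 arrays. Among genes with several probe sets above the array medians, the differences of those probe sets had a median SD of 0.65. Of 1492 called genes with at least 2 such probe sets, 868 had all of them past 4-fold in the same direction and 143 had probe sets of both signs. The ratio of the 3' to the 5' probe set of Gapdh is often read as a sign of RNA integrity. It was 2.02 in MC and 1.42 in whole liver, and that of Actb was 2.11 in MC and 2.26 in whole liver. The 14 hybridisation control probe sets were higher on the MC array by a median of 1.71 log2 units, with a range of 0.84 to 1.94, and they were not used for scaling.

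**Figure D1:**
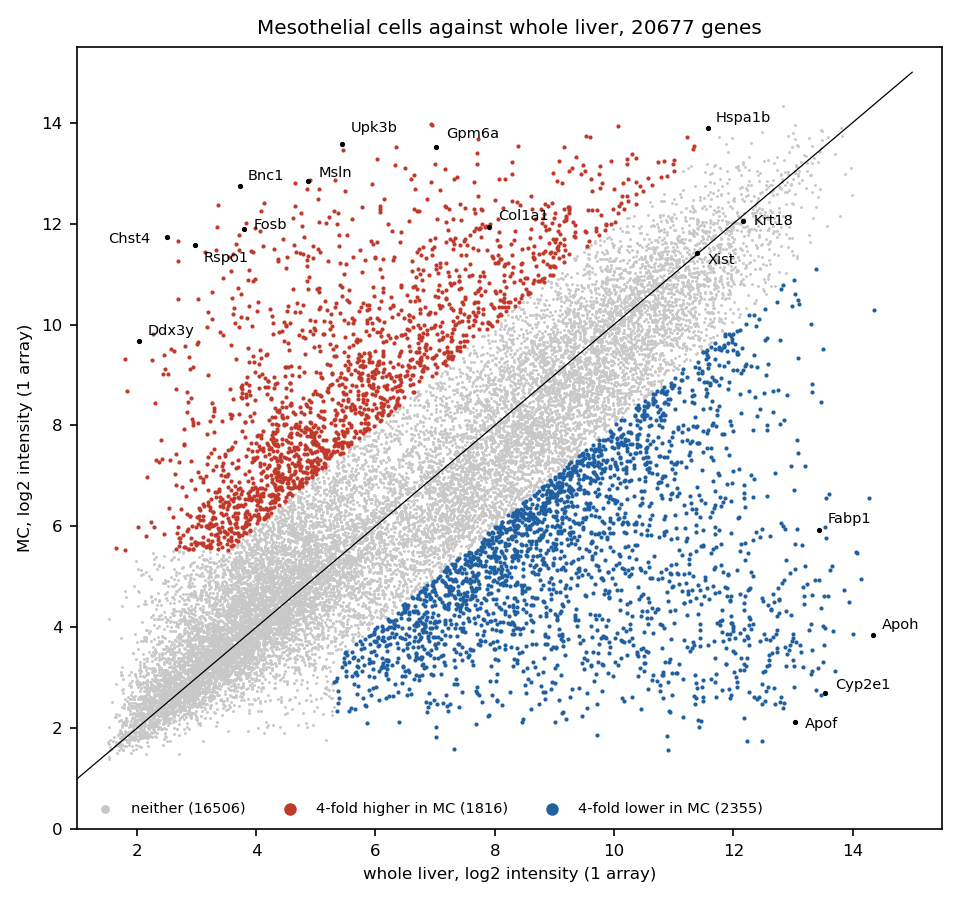
Log2 intensity of 20677 genes on the MC array (vertical) and the whole liver array (horizontal), 1 array each. Red points are the 1816 genes called higher in MC, blue points the 2355 called lower and grey points the rest; the diagonal marks equal values. Mesothelial genes such as Chst4 and Bnc1 lie at the upper left, plasma protein and liver enzyme genes at the lower right, and Krt18 and Xist on the diagonal.

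The MC array was bright for genes that mark mesothelium. Chst4, a Golgi enzyme that sulfates sugar chains, had an intensity of 3396 in MC and 5.66 in whole liver, a difference of 9.23. Bnc1, a zinc finger transcription factor, had 6851 in MC and 13.2 in whole liver, Upk1b, a tetraspanin of the uroplakin family, 3218 in MC and 6.45 in whole liver, and Rspo1, a secreted enhancer of Wnt signalling, 3051 in MC and 7.88 in whole liver. All 4 were bright on the MC array and dim on the whole liver array, with differences of 9.02, 8.96 and 8.6 after Chst4. The probe sets of Upk1b ranged over 7.40 to 8.96. These 4 markers were chosen with values of these arrays known, so their brightness describes the array and does not support its label. Gpm6a itself, whose protein was the sort marker, had 11783 in MC and 129 in whole liver, a difference of 6.51 in the direction that the purification selects. Col1a1, the gene whose promoter drives the reporter, had 3926 in MC and 241 in whole liver (4.03).

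Of 24 mesothelial markers, 21 were higher in MC and 0 lower, with a median difference of 7.07 against -0.04 for all genes. The list's median intensity was 4671 in MC and 39.47 in whole liver. Mesothelin (Msln), a surface glycoprotein, had 7343 in MC and 29.3 in whole liver, and its binding partner Muc16, a large membrane mucin, had 3924 in MC and 10.2 in whole liver. Wt1, the transcription factor named after Wilms tumour, had 3874 in MC and 15.7 in whole liver. These 3 differed by 7.97, 8.59 and 7.95. Besides Krt7 and Krt19, given below, further members higher by over 6 log2 units were Upk3b, a uroplakin (8.13), Lrrn4, a leucine-rich repeat membrane protein (8.1), the immune checkpoint ligand Cd200 (7.15), the secreted protease inhibitor Slpi (7.0), the tight junction protein Cldn15 (6.84), podoplanin, Pdpn (6.84), Nkain4 (6.56), the retinoic acid-making enzyme Aldh1a2 (6.26) and ezrin, Ezr, which ties microvilli to actin (6.03). Podxl, a sialomucin also found in endothelium, differed least among the called members, with 1035 in MC and 242 in whole liver (2.1). The 3 members that were not called were calretinin, Calb2, low on both arrays (13.4 in MC and 15.2 in whole liver), and the keratins Krt8 and Krt18, high on both. A lower intensity of a gene in whole liver can come from fewer cells of a type or from less RNA per cell, and these cannot be told apart here or below.

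On the other arrays the same 24 genes had a median intensity of 3140 in MC of biliary fibrosis, 17.73 in HSC, 59.12 in HSC of biliary fibrosis, 1609 in VitaminA-GFP+ cells, 149 in PF sham and 852 in portal fibroblasts of biliary fibrosis. Against the same whole liver array, 20 were higher in MC of biliary fibrosis, 1 in HSC, 4 in HSC of biliary fibrosis, 21 in VitaminA-GFP+ cells, 8 in PF sham and 18 in portal fibroblasts of biliary fibrosis. These comparisons share that array, so they are not independent of each other. The arrays also differed in the Gapdh 3' to 5' ratio. Whether this comes from RNA integrity or from the amplification was not tested. The Gapdh 3' to 5' ratio was 13.79 in MC of biliary fibrosis, 13.22 in PF sham and 10.16 in portal fibroblasts of biliary fibrosis. It was 5.68 in HSC of biliary fibrosis, 1.75 in HSC and 1.56 in VitaminA-GFP+ cells. The arrays of biliary fibrosis and PF sham, with the higher ratios, also carry sample codes that start with AI, and the other arrays do not. How far the ratio or the code series goes with the levels on these arrays was not tested. Chst4 had 674 in MC of biliary fibrosis, 642 in VitaminA-GFP+ cells and 6.73 in HSC. Bnc1 had 1479.8, 1602 and 10.2 on these 3 arrays in the same order. The members differed on the portal fibroblast arrays. Pdpn had 10537 in portal fibroblasts of biliary fibrosis and 9422 in PF sham, and Wt1 had 2612 and 2060.4 on the same arrays, while Msln had 244 and 24.6 and Chst4 12.6 and 7.83. Many mesothelial markers were thus bright on the VitaminA-GFP+ array and the portal fibroblast array of biliary fibrosis as well as on both MC arrays, fewer in PF sham, and most were low in HSC.

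**Figure D2:**
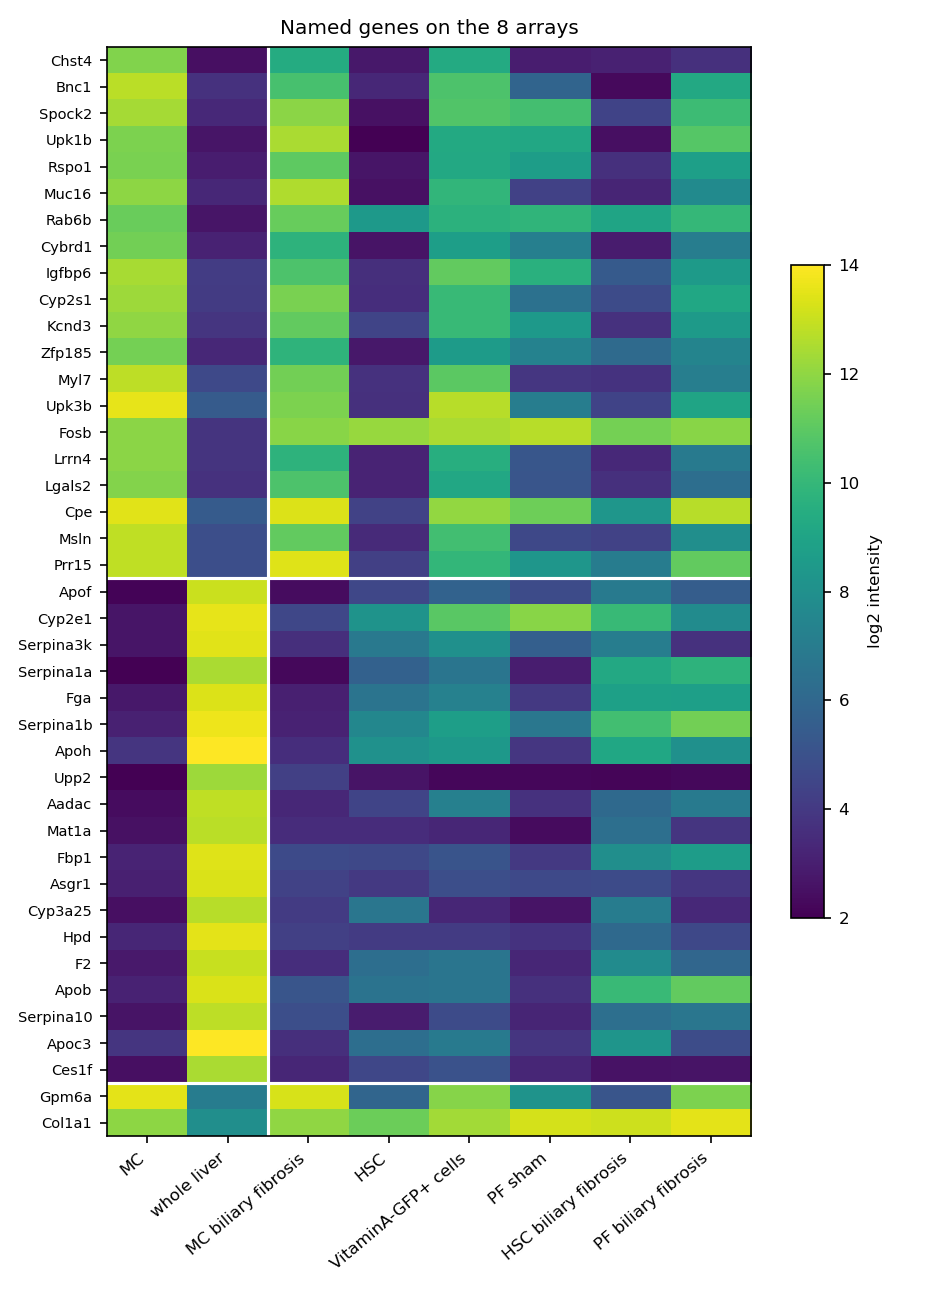
Log2 intensity, as colour from 2 to 14, of the 20 genes most higher in MC (upper block), genes among the 20 most lower (middle block) and Gpm6a and Col1a1 (lowest block) on all 8 arrays, 1 array per group. MC and whole liver are the first 2 columns; the upper block is bright in MC and dark in whole liver, the middle block the reverse, and HSC stay dark for most of both blocks while Fosb is bright on every array but whole liver.

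Beyond the mesothelial markers, the 20 largest positive differences held genes of the matrix, of growth factor binding and of excitable tissue. Spock2, a testican proteoglycan, had 5316 in MC and 10.3 in whole liver (9.01), though its probe sets ranged over 2.14 to 9.01. Igfbp6, an insulin-like growth factor binding protein with preference for IGF2, had 5471 in MC and 17.4 in whole liver (8.29). Myl7, the regulatory myosin light chain best known from the heart atrium, had 7118 in MC and 25.1 in whole liver (8.15), and Kcnd3, a voltage-gated potassium channel, had 4122 in MC and 14.3 in whole liver (8.17). The Kcnd3 value rests on 1 of 4 probe sets, the others lying below the array medians, and the mean over its probe sets was 3.11. Among the others were Rab6b, a Golgi GTPase (8.56, probe sets 2.21 to 8.56), the iron reductase Cybrd1 (8.3, probe sets 4.95 to 8.30) and the cytochrome P450 Cyp2s1 (8.18). The rest were Zfp185 (8.15, probe sets 5.69 to 8.15), the immediate early gene Fosb (8.11), the galectin Lgals2 (8.06, probe sets 5.85 to 8.06), the prohormone-processing carboxypeptidase Cpe (8.0, with a mean of 4.35 over its 2 probe sets) and Prr15 (7.96, probe sets 3.85 to 7.96).

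The uroplakins split. Upk1b and Upk3b, given above, were the 2 of 5 members called higher. Upk1a had 11 in MC and 13.4 in whole liver, Upk2 had 32 in MC and 42.8 in whole liver and Upk3a had 20.1 in MC and 26.8 in whole liver. In the bladder the family builds the rigid plaques of the urothelial surface, and these 3 of its members lay near or below the array medians on both arrays. The median difference of the 5 was -0.28.

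The keratins also split. Krt7 had 6608 in MC and 28.9 in whole liver and Krt19 had 9999.9 in MC and 65.4 in whole liver, differences of 7.84 and 7.26. Krt8 had 2558 in MC and 1927 in whole liver and Krt18 had 4231 in MC and 4575 in whole liver, differences of 0.41 and -0.11. Keratins pair as a type I and a type II chain in one filament, and hepatocytes use the Krt8 and Krt18 pair. Of 11 intermediate filament genes 4 were higher and 0 lower, with a median of 0.41: besides Krt7 and Krt19 these were vimentin, Vim, the filament of mesenchymal cells (15594 in MC and 1075 in whole liver, 3.86), and Krt14 (102 in MC and 23.6 in whole liver, 2.11). Not called were Lmna (3096 in MC and 1522 in whole liver), Krt5 (54.9 in MC and 41.9 in whole liver), nestin, Nes (42.2 in MC and 49.5 in whole liver), Krt23 (13.2 in MC and 29.6 in whole liver) and desmin, Des (18.2 in MC and 51.8 in whole liver).

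Of 28 junction genes 4 were higher and 11 lower in MC, with a median of -1.20. Among the higher were Cldn15, a tight junction claudin that forms cation pores (4129.9 in MC and 35.9 in whole liver, 6.84), the gap junction protein Gja1 (9195 in MC and 714 in whole liver, 3.69), and the cytoplasmic tight junction protein cingulin, Cgn (2.24). The hepatocyte gap junction genes went the other way: Gjb2 had 11.5 in MC and 8949.5 in whole liver and Gjb1 had 7.72 in MC and 1592 in whole liver. The claudins Cldn1 (-7.24), Cldn3 (-5.09) and Cldn14 (-3.98) were lower as well. So were desmoplakin, Dsp (87.6 in MC and 1424 in whole liver), and the cadherins Cdh1 (20.0 in MC and 230.0 in whole liver) and Cdh2 (287 in MC and 2640.1 in whole liver), which hold epithelial cells together. Tjp1, the scaffold of tight junctions, had 4276 in MC and 1604 in whole liver, a difference of 1.41 that did not reach 4-fold.

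Genes of the glycoprotein coat were mixed, with 6 of 24 higher, 4 lower and a median of 0.12. Besides Chst4, Muc16 and Podxl, the higher ones were Sulf1, an extracellular enzyme that trims sulfate from heparan sulfate (11727 in MC and 81.7 in whole liver, 7.17), the cell surface proteoglycan glypican 3, Gpc3 (4055 in MC and 40.7 in whole liver, 6.64), and the hyaluronan synthase Has1 (260.2 in MC and 22.6 in whole liver, 3.52). Syndecan 1, Sdc1, the main heparan sulfate proteoglycan of hepatocytes, was lower (387 in MC and 7647 in whole liver, -4.3). Sdc3 (-3.53, with another probe set near 0), the sulfotransferase Chst15 (-2.88) and lubricin, Prg4 (-2.18), were lower too.

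Among 26 genes of fluid and ion transport, 5 were higher and 7 lower, with a median of -0.41. Higher were the bicarbonate-family transporter Slc4a11 (2785 in MC and 15.4 in whole liver, 7.5), the chloride and bicarbonate exchanger Slc26a3 (570.2 in MC and 7.68 in whole liver, 6.21), the membrane carbonic anhydrase Car9 (5.49), the chloride channel Cftr (314 in MC and 9.82 in whole liver, 5.0) and the water channel Aqp1 (9618 in MC and 989.8 in whole liver, 3.28). Lower were the hepatocyte water channels Aqp9 (10.6 in MC and 4474 in whole liver, -8.73), Aqp11 (-6.62) and Aqp8 (-6.36), with the carbonic anhydrase relatives Car8 (-6.39), Car5a (-4.08) and Car14 (-2.97) and the transporter Slc4a7 (-2.49). Water channels were thus found in both directions, Aqp1 on the MC side and Aqp8, Aqp9 and Aqp11 on the liver side.

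R-spondins bind LGR receptors and keep Wnt receptors on the cell surface, and in the liver Wnt signals maintain the pericentral hepatocytes. Of 28 ligand and inhibitor genes, 7 were higher in MC and 4 lower, with a median of 0.08. After Rspo1, the largest differences were the secreted inhibitors Sfrp2 (2748 in MC and 26.7 in whole liver, 6.69) and Sfrp1 (930.3 in MC and 30.0 in whole liver, 4.95) and the ligands Wnt9a (1961 in MC and 29.5 in whole liver, 6.05), Wnt5a (934 in MC and 57.4 in whole liver, 4.03) and Wnt2b (132 in MC and 14 in whole liver, 3.24). Dkk3 was the seventh (2.37). Rspo3, the R-spondin known from central vein endothelium and stellate cells, was lower, with 15.1 in MC and 177 in whole liver (-3.55). It was brightest in HSC, with 5031, and had 3155 in HSC of biliary fibrosis. Lower too were the Wnt deacylase Notum (-2.75), Frzb (-2.55) and Wnt5b (-2.03). The 2 R-spondins therefore lay on opposite sides of this comparison.

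On the receiving side, 0 of 15 R-spondin receptors and Wnt target genes were higher in MC and 7 were lower, with a median of -1.24. The receptor Lgr4 had 315 in MC and 1346 in whole liver (-2.1), and the ubiquitin ligase Rnf43, which removes Wnt receptors and is itself a target, had 10.1 in MC and 196 in whole liver (-4.27). Lgr5 had 82.7 in MC and 29 in whole liver and the feedback inhibitor Nkd1 had 158 in MC and 40.8 in whole liver, differences of 1.51 and 1.95 that did not reach 4-fold. The pericentral hepatocyte genes Cyp2e1 (-10.83), Cyp1a2 (-7.57), Tbx3 (-4.98, probe sets -4.98 to 1.06), Slc1a2 (-3.35) and Rhbg (-2.56) were lower. Glutamine synthetase, Glul, another pericentral gene, was not called, with 6668 in MC and 9526 in whole liver (-0.51). Oat (3116 in MC and 3553 in whole liver, -0.19), Znrf3 (-0.41) and the Wnt target Axin2 (262 in MC and 224 in whole liver, 0.23) were not called either.

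Of 29 genes of transforming growth factor beta (TGF-beta) and BMP signalling, 12 were higher, 4 lower and the median was 1.22. The ligands divided by isoform: Tgfb3 had 2805 in MC and 15.1 in whole liver (7.54) and Tgfb2 had 3002 in MC and 42 in whole liver (6.16), while Tgfb1 had 9.97 in MC and 62.5 in whole liver (-2.65). The latent TGF-beta binding proteins, some of which store the inactive ligand in the matrix, were all higher: Ltbp4 (5.67), Ltbp1 (5.55), Ltbp3 (3.3) and Ltbp2 (3.11). Among receptors, Tgfbr3, or betaglycan, which presents TGF-beta 2 to the signalling receptors, had 3149 in MC and 483 in whole liver (2.7, probe sets 0.37 to 2.70), and Tgfbr2 had 4632 in MC and 884 in whole liver (2.39). Bmp4 was higher (1209.8 in MC and 25.1 in whole liver, 5.59), with the activin antagonist follistatin, Fst (1910.1 in MC and 15.7 in whole liver, 6.93), Fstl1 (3.94) and the BMP target Id1 (3.53). Bmp5 (15.8 in MC and 356 in whole liver, -4.49), Bmper (-2.51) and Bmp2 (-2.39) were lower.

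Of 35 growth factor and IGF binding protein genes, 13 were higher, 6 lower and the median was 0.62. Igfbp6, already given, led. Fgf18 had 1108 in MC and 9.55 in whole liver (6.86) and Fgf9, a fibroblast growth factor that acts on mesenchyme, had 1242 in MC and 58.3 in whole liver (4.41). Pdgfd, a ligand of the platelet-derived growth factor receptor beta, had 2594 in MC and 22.9 in whole liver (6.82, probe sets 1.70 to 6.82). Kitl, the ligand of the KIT receptor, had 2196 in MC and 104 in whole liver (4.39). The matricellular genes Ccn2 (4.64) and Ccn1 (4.16) and Igfbp5 (4.21) were higher also. Among the lower were Igfbp2 (59.3 in MC and 1841 in whole liver, -4.96), the angiogenic factor Vegfa (45.4 in MC and 552 in whole liver, -3.6), the hepatocyte product Igf1 (549.8 in MC and 4094 in whole liver, -2.9), hepatocyte growth factor, Hgf (-2.5), and Vegfb (-2.28).

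The sort marker belongs to a family known from neurons, and of 28 adhesion and guidance genes best known from nerve 8 were higher and 3 lower, with a median of 1.11. Beside Gpm6a and Lrrn4, 4 cues of the semaphorin 3 class were higher, namely Sema3c (6564 in MC and 33.2 in whole liver, 7.63), Sema3d (4235 in MC and 94.6 in whole liver, 5.48), Sema3a (2.94) and Sema3e (2.83). Slit2, a guidance cue read by ROBO receptors, had 1051 in MC and 23.6 in whole liver (5.48), and the adhesion molecule Ncam1 had 1669 in MC and 103 in whole liver (4.02). The semaphorin receptor Nrp1 (353 in MC and 1624 in whole liver, -2.2, probe sets -3.64 to 0.70), netrin 1, Ntn1 (-2.94), and the ephrin Efnb2 (-2.1) were lower. Gpm6b, the closest relative of Gpm6a, had 65.5 in MC and 175 in whole liver, a difference of -1.42 that was not called.

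Retinoid genes were more often lower than higher in MC. Of 22 genes 2 were higher and 10 lower, with a median of -1.89. Aldh1a2, which makes retinoic acid from retinal, had 1231 in MC and 16.1 in whole liver, and the receptor Rarg had 302 in MC and 65.9 in whole liver (2.2). The plasma carrier Rbp4 (12.5 in MC and 7939.9 in whole liver, -9.31), the alcohol dehydrogenases Adh1 (-9.33) and Adh4 (-7.83), and Lrat, which esterifies retinol for storage in stellate cells (10.4 in MC and 453 in whole liver, -5.44), were lower.

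Transcription factors divided by list. Of 15 hepatocyte factors 14 were lower in MC and 0 higher, with a median of -5.22. Hnf4a, a master regulator of hepatocyte genes, had 18.8 in MC and 6802 in whole liver (-8.5, probe sets -8.50 to -1.84), and Cebpa had 50.5 in MC and 8368 in whole liver (-7.37). The nuclear receptors Nr1i3 (-7.07) and Nr1h4 (-5.78) and the forkhead factor Foxa1 (-6.52) were lower too. Of 29 mesenchymal and mesothelial factors, 11 were higher and 3 lower, with a median of 1.55. After Bnc1 and Wt1 came Gata5 (307 in MC and 20.8 in whole liver, 3.88), Osr1 (138 in MC and 10.9 in whole liver, 3.67), Meis2 (3.35), Tead1, a DNA-binding partner of YAP (2551 in MC and 249.9 in whole liver, 3.35), Foxf1 (3.13) and Gata6 (3.03). Tcf21 (15.1 in MC and 227 in whole liver, -3.91), Zeb2 (-2.58, probe sets -2.58 to 1.58) and Snai2 (-2.26), factors of fibroblasts or of the loss of epithelial form, were lower. Their relatives Zeb1 (0.98, probe sets -0.12 to 2.96) and Snai1 (-0.04), and Twist1 (1.12), were not called, so such factors did not move as a class.

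Markers of other liver cells were counted on both arrays to see what each sample held. Kupffer cell and macrophage markers were lower in MC in 16 of 18 cases, with 0 higher and a median of -5.80, and 3 of 18 reached the array median in MC against 18 in whole liver. Their summed intensity was 1455 in MC and 23757 in whole liver. The complement gene C1qb had 6.94 in MC and 2693 in whole liver and the Kupffer cell receptor Vsig4 had 5.21 in MC and 1397 in whole liver. The 2 not called were Cd14 (135 in MC and 117 in whole liver) and the receptor Csf1r (957 in MC and 1741 in whole liver). Markers of lymphocytes, natural killer cells and neutrophils were lower in 8 of 19 cases and higher in 0, with summed intensities of 829 in MC and 3517 in whole liver, and the pan-leukocyte gene Ptprc had 6.5 in MC and 368 in whole liver. Erythroid and platelet markers were lower in 4 of 11 cases and higher in 0, with sums of 206 in MC and 984 in whole liver. No marker is listed at 0 on either array, because the normalization leaves every probe set a positive value.

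HSC markers were lower in 12 of 22 cases and higher in 0, with a median of -2.65, or -1.67 with the probe sets of each gene averaged, and summed intensities of 8420 in MC and 13540.0 in whole liver. Reelin, Reln, which stellate cells secrete, had 12.2 in MC and 982 in whole liver (-6.33), and Cxcl12 had 11.3 in MC and 4179.8 in whole liver (-8.53). The matrix protein gene Ecm1 (4556 in MC and 1920.0 in whole liver) gave the largest share of the MC sum. Endothelial markers were lower in 10 of 20 cases and higher in 2, with a median of -2.07 and sums of 5552 in MC and 8002 in whole liver. The sinusoidal gene Clec4g had 58.1 in MC and 1174 in whole liver (-4.34) and Cdh5, the cadherin of all endothelium, had 13.9 in MC and 85 in whole liver, while the 2 higher genes were Esam (1664 in MC and 169 in whole liver, 3.3) and Kdr, a receptor of VEGF (1849.6 in MC and 434 in whole liver, 2.09).

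Portal fibroblast markers moved with the mesothelial ones: 15 of 21 were higher and 3 lower, with a median of 3.65 and summed intensities of 50359.7 in MC and 3218 in whole liver. Igfbp6, given above, differed most. Fibromodulin, Fmod, had 16135 in MC and 122 in whole liver (7.04), elastin, Eln, had 3428 in MC and 27.9 in whole liver (6.94) and the surface protein Cd34 had 2681 in MC and 27.4 in whole liver (6.61). Thy1, a surface marker used to sort portal fibroblasts, had 306 in MC and 24.4 in whole liver (3.65), and Entpd2 had 601 in MC and 106 in whole liver (2.51). Lower were Col15a1 (23.8 in MC and 161 in whole liver, -2.76), Dpep1 (-2.36) and Dpt (-2.13). The fibroblast receptor Pdgfra had 83.5 in MC and 258 in whole liver (-1.63, not called). On the HSC array the median intensity of these 21 genes was 16.04, and it was 1728 on the VitaminA-GFP+ array, 2504 in PF sham and 1867 in portal fibroblasts of biliary fibrosis. Whether portal fibroblasts were present among the purified MC was not tested. The list shares genes with the matrix lists below, and several of its genes are also made by other fibroblasts.

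Among cholangiocyte markers 4 of 20 were higher and 4 lower, with a median of 0.05. The higher ones were Krt7, Krt19, Cftr and Tspan8 (881 in MC and 74.3 in whole liver, 3.57), the first 2 of which are mesothelial markers as well. Prom1 (51.2 in MC and 554 in whole liver, -3.44), Pkhd1 (-3.4), Spp1 (-3.13) and Cdh1 were lower. Of smooth muscle and pericyte markers, 2 of 16 were higher, namely smooth muscle actin, Acta2 (1598 in MC and 69.8 in whole liver, 4.52), and Synpo2 (2.12), and 1, the potassium channel subunit Abcc9 (7.11 in MC and 439 in whole liver, -5.95), was lower.

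**Figure D3:**
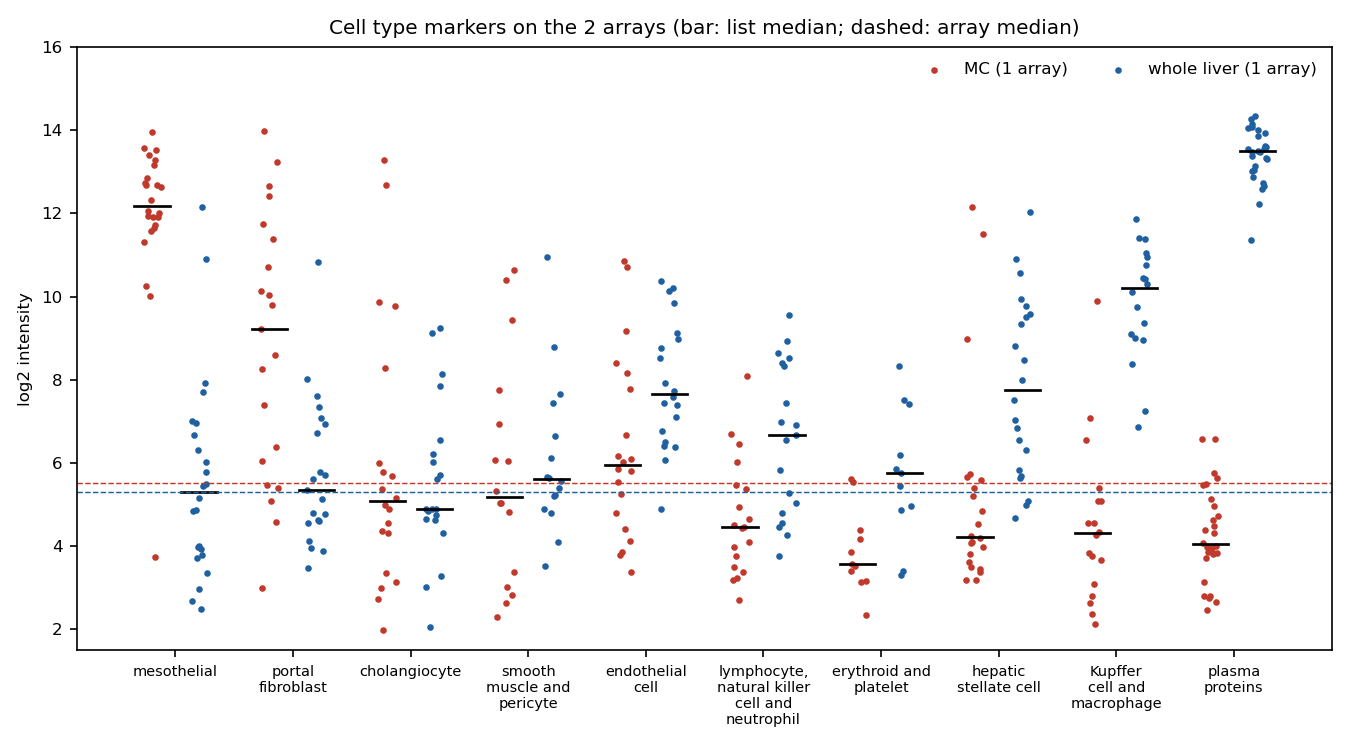
Log2 intensity of the members of 9 cell type marker lists and of plasma proteins on the MC array (red, left of each pair) and the whole liver array (blue, right); each point is 1 gene, the bar is the list median and the dashed lines are the array medians in the same colours. Mesothelial and portal fibroblast medians lie far above the array median in MC and close to it in whole liver, cholangiocyte medians are close together, and Kupffer cell, stellate cell and plasma protein medians are far lower in MC.

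The extracellular matrix made up a large group on the MC side, and the portal fibroblast markers given above moved with it. The matrix lists also had positive medians against whole liver on the other arrays of isolated cells, so this was not particular to MC. Of 25 basement membrane genes 15 were higher and 0 lower, with a median of 3.31. Against the same whole liver array, the basement membrane median was 2.41 in MC of biliary fibrosis, 0.85 in HSC and 3.49 in VitaminA-GFP+ cells. It was 4.03 in PF sham, 3.26 in HSC of biliary fibrosis and 3.41 in portal fibroblasts of biliary fibrosis. The network collagen chains divided. Col4a4 had 3321 in MC and 21.8 in whole liver (7.25, probe sets 2.05 to 7.25), Col4a6 had 716 in MC and 6.17 in whole liver (6.86) and Col4a3 had 739.5 in MC and 14.6 in whole liver (5.66). The chains alpha 3, 4 and 5 form the collagen IV of kidney glomeruli, and alpha 5 and 6 that of smooth muscle and some epithelia. Col4a5 was higher as well (1814 in MC and 159 in whole liver, 3.51). Col4a1 (563 in MC and 299 in whole liver) and Col4a2 (623 in MC and 217 in whole liver), the chains found in nearly all basement membranes, had differences of 0.91 and 1.52 and were not called. Among laminins, the higher chains included Lamb2 (1401 in MC and 46.9 in whole liver, 4.9), Lama5 (1518 in MC and 63 in whole liver, 4.59), Lama4 (4.29), Lamc1 (3.97) and Lamc3 (3.33), and nidogen 2, Nid2, which links laminin to collagen IV, had 1040.0 in MC and 61.2 in whole liver (4.09).

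Of 18 fibrillar collagens and cross-linking enzymes, 9 were higher and 0 lower, with a median of 2.20. Against the same whole liver array, this median was 2.53 in MC of biliary fibrosis, 3.34 in HSC and 3.44 in VitaminA-GFP+ cells. It was 3.99 in PF sham, 4.07 in HSC of biliary fibrosis and 3.79 in portal fibroblasts of biliary fibrosis. The MC median was thus the lowest among the arrays of isolated cells. Col3a1 had 11796 in MC and 574 in whole liver (4.36), Col1a2 had 4048 in MC and 222 in whole liver (4.19) and Col5a2 had 2775 in MC and 103 in whole liver (4.75). The lysyl oxidases, which cross-link collagen and elastin, reached the largest differences, Loxl1 with 993 in MC and 9.03 in whole liver (6.78) and Lox with 1287 in MC and 12.4 in whole liver (6.7). The collagen chaperone Serpinh1 (5.06) and the lysyl hydroxylase Plod2 (4.5) were higher. Of 14 other collagens 5 were higher and 2 lower, with a median of 0.82. Col6a2 (3513 in MC and 41.9 in whole liver, 6.39) and Col6a1 (7247 in MC and 121 in whole liver, 5.9), chains of microfibrillar collagen VI, led, and Col15a1 and Col18a1 (399.7 in MC and 1835 in whole liver, -2.2), collagens of vessel basement membranes, were the lower ones. The third chain of collagen VI, Col6a3, had 164 in MC and 64.7 in whole liver, a difference of 1.34 that was not called.

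Of 29 matrix glycoproteins and small proteoglycans 17 were higher and 7 lower, with a median of 2.65. Osteoglycin, Ogn, had 7065 in MC and 61.6 in whole liver (6.84). The elastic fibre proteins Fbln1 (1673 in MC and 24.6 in whole liver, 6.09), Efemp1 (10784 in MC and 208 in whole liver, 5.7) and Fbn1 (4.83) and the calcification inhibitor Mgp (6515 in MC and 135 in whole liver, 5.59) were higher together with Eln and Fmod. Lower were Smoc1 (13.6 in MC and 1984 in whole liver, -7.19), periostin, Postn (7.08 in MC and 208 in whole liver, -4.87), lumican, Lum (10.7 in MC and 136 in whole liver, -3.67), and fibronectin, Fn1, which hepatocytes secrete into plasma (393 in MC and 4439 in whole liver, -3.5). Small leucine-rich proteoglycans thus appeared on both sides, Fmod and Ogn in MC and Lum in liver tissue.

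Genes of matrix proteases, protease inhibitors and fibrinolysis were higher in 13 of 28 cases and lower in 3, with a median of 1.3. Tissue plasminogen activator, Plat, had 628 in MC and 4.77 in whole liver (7.04), while urokinase, Plau, had 9.07 in MC and 10.8 in whole liver and was not called. Slpi had 15857 in MC and 124 in whole liver. The metalloproteinase inhibitors Timp1 (936 in MC and 21.5 in whole liver, 5.44), Timp2 (9489 in MC and 312 in whole liver, 4.93) and Timp3 (3253 in MC and 263 in whole liver, 3.63) were higher, as were thrombomodulin, Thbd (4725 in MC and 204 in whole liver, 4.54), tissue factor, F3, the starter of coagulation (1263 in MC and 59.4 in whole liver, 4.41), and Mmp23 (4.6). Tfpi2 (26.5 in MC and 2422 in whole liver, -6.52), Mmp15 (-4.41) and Mmp19 (207 in MC and 2543 in whole liver, -3.62) were lower.

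**Figure D4:**
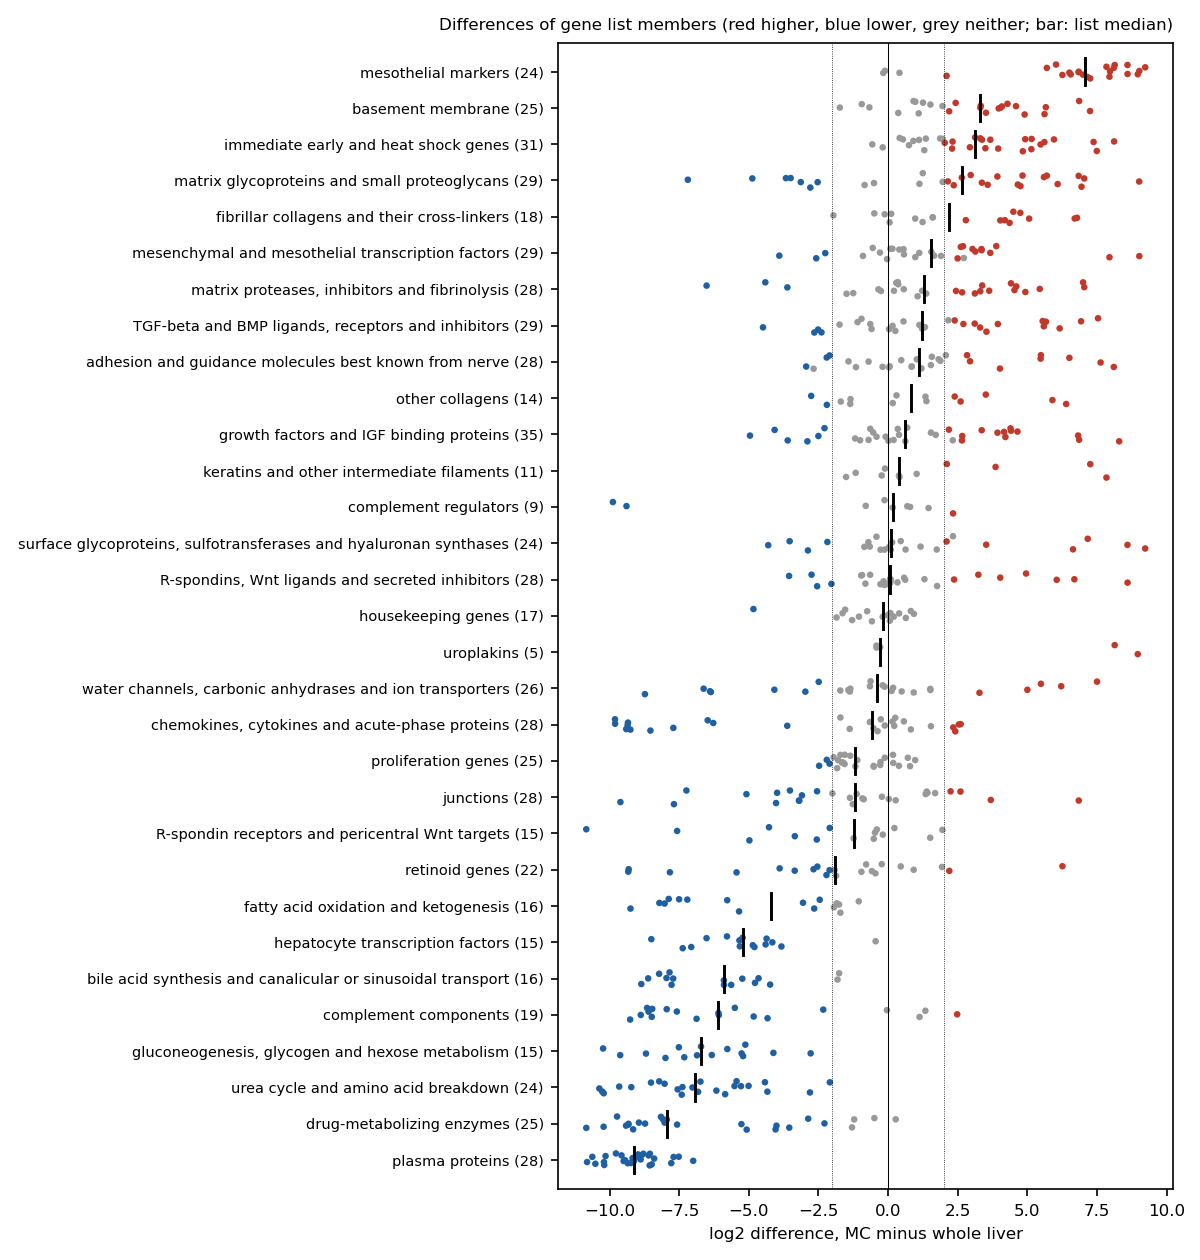
Log2 difference, MC minus whole liver, of every measured member of 31 gene lists, with the number of members in brackets and the lists ordered by their median (black bar). Red points are genes called higher, blue points genes called lower, grey points neither, and dotted lines mark 4-fold. Mesothelial markers lie at the top with a median of 7.07 and plasma proteins at the bottom with -9.10.

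Most complement components, which hepatocytes and macrophages make, were lower, and most regulators were not. Of 19 components measured, 15 were lower in MC and 1 higher, with a median of -6.09. The terminal components C8a (11.6 in MC and 4085 in whole liver, -8.47), C8g (-8.65) and Hc, which encodes C5 (19.4 in MC and 6955 in whole liver, -8.48), and the mannose-binding lectins Mbl1 (-8.88) and Mbl2 (12.2 in MC and 7496 in whole liver, -9.26) were lower. C2 was the 1 higher component, with 9543 in MC and 1712 in whole liver (2.48). The first proteases of the classical pathway had differences under 4-fold: C1ra had 4593 in MC and 1816 in whole liver and C1s1 had 7119.7 in MC and 3256 in whole liver. Among 9 regulators 1 was higher, Cd46 (63.6 in MC and 12.6 in whole liver, 2.33), and 2 were lower, C4bp (11.7 in MC and 7822 in whole liver, -9.39) and vitronectin, Vtn (12.6 in MC and 11824 in whole liver, -9.88), while the median was 0.17. The others were not called, among them the C1 inhibitor Serping1 (14176 in MC and 8194 in whole liver), clusterin, Clu (12835 in MC and 11438 in whole liver), the surface regulators Cd55 (736 in MC and 269 in whole liver) and Cd59a (532 in MC and 928 in whole liver), and Cr1l (1766 in MC and 1931 in whole liver).

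Of 28 chemokine, cytokine and acute-phase genes 4 were higher and 11 lower, with a median of -0.59. The 4 were the macrophage growth factor Csf1 (1587 in MC and 261 in whole liver, 2.61), the alarmin Il33 (1219 in MC and 209.8 in whole liver, 2.54), the interferon-induced chemokine Cxcl10 (1945 in MC and 365 in whole liver, 2.41) and Il18 (3707 in MC and 733 in whole liver, 2.34). Lower genes included the iron hormone Hamp (9.55 in MC and 6182 in whole liver, -9.34), C-reactive protein, Crp (-9.8), and the acute-phase genes Orm1 (-9.8), Orm2 (-9.4), Saa1 (-9.25) and Saa4 (-9.35). Orm1 and Orm2, and Saa1 and its neighbour Saa2, are near-identical copies whose probe sets may take signal from each other.

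The genes of hepatocyte work were lower almost without exception. All 28 measured plasma protein genes were lower in MC, with a median of -9.10, and their median intensity was 16.49 in MC and 11536 in whole liver. Albumin, Alb, had 94.8 in MC and 19727 in whole liver (-7.7), apolipoprotein H, Apoh, had 14.3 in MC and 20807 in whole liver (-10.51, with a mean of -5.60 over its 2 probe sets), and prothrombin, F2, had 7.02 in MC and 8258 in whole liver (-10.2). All 24 urea cycle and amino acid breakdown genes were lower, with a median of -6.92. Otc of the urea cycle had 9.37 in MC and 7541 in whole liver (-9.65), and Hpd of tyrosine breakdown had 9.88 in MC and 11688 in whole liver (-10.21). All 15 genes of gluconeogenesis, glycogen and hexose metabolism were lower, with a median of -6.72, led by Fbp1 (9.08 in MC and 10910.3 in whole liver, -10.23) and the glucose transporter Slc2a2 (7.32 in MC and 5751 in whole liver, -9.62). Of the 28 plasma protein genes, 4 reached the array median in MC and 28 in whole liver.

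Bile acid synthesis and transport genes were lower in 14 of 16 cases and higher in 0, with a median of -5.89. The conjugating enzymes Slc27a5 (13.5 in MC and 6255 in whole liver, -8.86) and Baat (-8.61) and the canalicular bile salt pump Abcb11 (8.59 in MC and 2132 in whole liver, -7.96) showed it, and the sterol transporters Abcg5 (304 in MC and 1069 in whole liver) and Abcg8 (46.5 in MC and 157 in whole liver) were the 2 not called. Drug-metabolizing enzymes were lower in 21 of 25 cases and higher in 0, with a median of -7.94. Cyp2e1 had 6.49 in MC and 11852 in whole liver (-10.83), Cyp3a11 had 6.15 in MC and 5225 in whole liver (-9.73) and Cyp2f2 had 4.42 in MC and 2824 in whole liver (-9.32). The 4 not called were the epoxide hydrolase Ephx1 (3614 in MC and 2991 in whole liver), the glutathione transferases Gstp1 (4353 in MC and 6123 in whole liver) and Gstm1 (4426 in MC and 10292 in whole liver), and Ces1d (2688 in MC and 6594 in whole liver), bright on both arrays. Fatty acid oxidation and ketogenesis genes were lower in 11 of 16 cases and higher in 0, with a median of -4.20. The fatty acid binding protein Fabp1 had 61.2 in MC and 11101 in whole liver (-7.5). The beta-oxidation enzymes Hadh (-1.05), Acaa2 (-1.71), Acadm (-1.76) and Cpt1a (-1.85) did not reach 4-fold. Near-identical members of the Cyp2c, Cyp2d, Cyp3a, Ugt2b, Ces1, Serpina1 and Serpina3 families may share signal, so which copy a probe set measured is uncertain.

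The 20 largest negative differences were all of this kind. Apof, an apolipoprotein, came first, with 4.38 in MC and 8347 in whole liver (-10.9), followed by Cyp2e1, Serpina3k (-10.81, probe sets -10.81 to -6.70), Serpina1a (3.36 in MC and 5739.9 in whole liver, -10.74), Fga (6.79 in MC and 10674 in whole liver, -10.62) and Serpina1b (8.72 in MC and 13306 in whole liver, -10.58). Serpina1a and Serpina1b encode alpha-1 antitrypsin and Fga the alpha chain of fibrinogen. Others were Upp2, a uridine phosphorylase (-10.48, probe sets -10.48 to -3.94), the esterase Aadac (-10.42), the S-adenosylmethionine synthetase Mat1a (-10.26), the asialoglycoprotein receptor chain Asgr1 (-10.23), Apob (-10.19, probe sets -10.19 to -5.97), Serpina10 (-10.18), Apoc3 (-10.14) and Ces1f (-10.0).

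Hepatocyte genes are controlled in large part by HNF1, HNF4 and related factors that bind near the start site, so the promoters of the called genes were searched. RefSeq promoter sequences of build GRCm38.p6, from 250 bases before to 50 after the start site, were matched by symbol to 14459 of the 20677 genes. The promoters of 4 of the genes most lower in MC are shown, 5′ to 3′ on the gene's strand, because they hold the HNF1 core GTTAAT or the TATA box TATAAA, which the capitals mark on either strand.
Cyp2e1, chr7:140763569-140763868, plus strand: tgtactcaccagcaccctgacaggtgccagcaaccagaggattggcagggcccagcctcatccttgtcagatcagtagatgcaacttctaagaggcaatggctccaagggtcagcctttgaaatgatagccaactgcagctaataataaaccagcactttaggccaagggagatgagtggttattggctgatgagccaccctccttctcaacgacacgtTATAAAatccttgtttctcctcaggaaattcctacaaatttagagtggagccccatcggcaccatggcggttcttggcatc
Serpina1a, chr12:103863570-103863869, minus strand: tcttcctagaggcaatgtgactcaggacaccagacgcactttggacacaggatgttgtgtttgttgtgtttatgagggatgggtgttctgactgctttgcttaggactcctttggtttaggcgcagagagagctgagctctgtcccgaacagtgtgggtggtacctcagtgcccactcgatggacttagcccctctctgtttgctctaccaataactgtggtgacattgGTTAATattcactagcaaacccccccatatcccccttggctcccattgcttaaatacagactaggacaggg
Fga, chr3:83025903-83026202, plus strand: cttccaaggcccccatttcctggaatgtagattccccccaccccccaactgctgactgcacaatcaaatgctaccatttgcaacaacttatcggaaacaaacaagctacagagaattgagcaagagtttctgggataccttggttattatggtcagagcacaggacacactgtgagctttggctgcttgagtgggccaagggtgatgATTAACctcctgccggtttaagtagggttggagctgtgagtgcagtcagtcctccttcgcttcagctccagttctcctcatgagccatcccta
Serpina1b, chr12:103738140-103738439, minus strand: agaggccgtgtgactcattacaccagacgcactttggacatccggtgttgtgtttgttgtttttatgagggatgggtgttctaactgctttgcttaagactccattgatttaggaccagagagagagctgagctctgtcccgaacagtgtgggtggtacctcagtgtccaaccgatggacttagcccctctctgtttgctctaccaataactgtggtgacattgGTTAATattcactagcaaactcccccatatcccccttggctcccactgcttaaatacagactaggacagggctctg
In Cyp2e1 the TATA box began at base -31, counted from the start site. The HNF1 core began at -21 in Serpina1a, at -26 in Serpina1b and, on the other strand as ATTAAC, at -43 in Fga. Serpina1a and Serpina1b hold it within the same surrounding letters, since they are copies of one another.

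The HNF1 core was in 16.18% of the 309 promoters of genes lower in MC by at least 6 log2 units, in 7.34% of the 1825 promoters of all lower genes, in 4.22% of the 1089 promoters of higher genes, in 5.06% of all 14459 measured promoters and in 7.20% of all 27025 promoters listed. The full HNF1 motif, which contains the core, was in 5 promoters of lower genes, 1 of higher genes and 9 of all measured. The HNF4 motif CAAAGTCCA was in 3.24% of promoters of the genes lower by at least 6, in 0.18% of those of higher genes and in 0.44% of all measured. The TATA box was in 19.74% of promoters of genes lower by at least 6, in 10.38% of those of higher genes and in 9.79% of all measured. Promoters of the genes lower by at least 6 thus held these 3 motifs more often than promoters at large, as a count in these letters. They were also poor in CpG: their median ratio of observed to expected CpG was 0.235 against 0.676 over all measured promoters, 75.7% of them had a ratio under 0.4 against 28.9% of all, and their median GC content was 50% against 58.67%. How far base composition sets the motif shares was not tested.

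On the MC side, the TEAD motif CATTCC was in 20.2% of the 99 promoters of genes higher by at least 6, in 15.06% of those of all higher genes, in 12.93% of those of lower genes and in 12.99% of all measured. The AP-1 motif TGANTCA, the site of FOS and JUN, was in 6.06% of promoters of genes higher by at least 6, in 6.52% of those of all higher genes, in 9.39% of those of genes lower by at least 6, in 6.63% of those of all lower genes and in 6.27% of all measured. The motif GCGGGGGCG, read by EGR1 and WT1, was in 5.60% of promoters of higher genes, in 3.23% of those of lower genes and in 4.65% of all measured. The C/EBP motif TTGCGCAA was rare, in 0.37% of promoters of higher genes, 0.16% of those of lower genes and 0.24% of all measured. Chst4 held an AP-1 motif beginning at -59, Myl7 a TEAD motif at -70 and Fosb the EGR1 motif at -50. A match is only a run of letters and not evidence of binding.

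**Figure D5:**
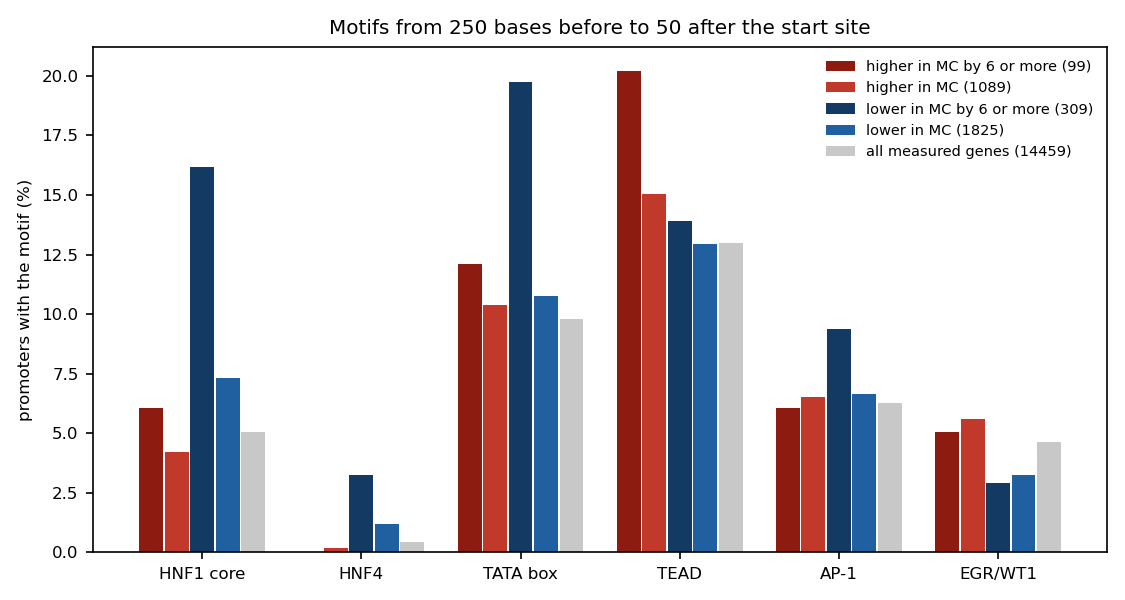
Share of promoters (percent, vertical) that hold each of 6 motifs on either strand, for genes higher in MC (dark red for a log2 difference of at least 6, red for all), genes lower in MC (dark blue and blue likewise) and all 14459 measured genes with a promoter (grey), with the number of promoters in brackets. The dark blue bars are the tallest for the HNF1 core, HNF4, the TATA box and AP-1, and the dark red bar is the tallest for TEAD.

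Immediate early genes, which cells are known to switch on quickly when they are handled, were higher in MC. Of 31 immediate early and heat shock genes, 20 were higher and 0 lower, with a median of 3.12. Fosb had 3825 in MC and 13.8 in whole liver (8.11), Fos, a subunit of AP-1, had 13088 in MC and 211 in whole liver (5.95), the orphan nuclear receptor Nr4a1 had 1598 in MC and 9.62 in whole liver (7.38) and the zinc finger factor Egr1 had 11886 in MC and 334 in whole liver (5.15). The inducible heat shock gene Hspa1a had 4415 in MC and 24.5 in whole liver (7.49) and its near-identical copy Hspa1b had 15138 in MC and 3042 in whole liver (2.32). On the 6 other arrays, all of isolated cells, Fosb ran from 2897 to 6807, so whole liver was the only array of the 8 with a low value. Isolation of the cells and their type cannot be told apart in this comparison, and the part of handling in the other differences was not tested.

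Proliferation genes gave 0 higher and 3 lower of 25, beside 8.78% higher and 11.4% lower of all genes. The share lower was thus close to that of all genes. Their median was -1.17, or -0.64 with the probe sets of each gene averaged. The lower ones were Aurka (22.8 in MC and 127 in whole liver, -2.48), Ccna2 (30.3 in MC and 139 in whole liver, -2.2) and Rrm2 (211 in MC and 905 in whole liver, -2.1). Of 17 housekeeping genes 1 was lower, the transferrin receptor Tfrc (88 in MC and 2511 in whole liver, -4.83, probe sets -4.83 to -0.16), and 0 higher, with a median of -0.19.

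Sex-linked genes differed between the arrays. The Y-linked genes Ddx3y (816 in MC and 4.1 in whole liver, 7.64), Eif2s3y (347 in MC and 4.96 in whole liver, 6.13) and Kdm5d (55.7 in MC and 4.46 in whole liver, 3.64) were higher in MC, and Uty had 34 in MC and 6.32 in whole liver (2.43), below the array median on both. Xist, the RNA of the inactive X chromosome in females, had 2728 in MC and 2702 in whole liver (0.01). The MC array thus carried both Xist and Y-linked signal, and the whole liver array Xist with very low Y-linked signal. The labels give no sex. Many liver genes differ between the sexes, and for those the sex of the mice and the cell type cannot be told apart in this pair.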

How the data were processed

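RNA of 8 groups of mouse liver cells or tissue was measured on Affymetrix arrays, 1 array per group, and MC and whole liver were compared here. The authors deposited intensity values on a linear scale, made with Partek and RMA per the submitters' processing notes (versions: not given in the sources). Both deposited tables were identical after log2 (largest difference 0). It was not stated whether RMA took the 8 arrays jointly. Log2 was taken first. Gene symbols were updated through RefSeq gene IDs for 35012 probe sets, which altered 3174. Control probe sets (64) and those naming several genes (1280) or none (5746) stayed out of the gene counts.

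With 1 array per group no error, interval or p-value can be given, and this number limits the precision. A gene counted as higher or lower at a log2 difference of at least 2 if the brighter array reached its median over non-control probe sets. The members, lists and rules were chosen with earlier results of these data known. Genes named are the 20 largest differences in each direction without predicted genes, Gpm6a, Col1a1, the cell type markers, every member of lists of up to 12 genes and of the mesothelial, immediate early and sex-linked lists, and up to 8 largest per direction of longer lists. Named after their values were seen were Cd14, Csf1r, Glul, Oat, Znrf3, Ltbp2, Ltbp3, Tgfbr2, Tgfbr3, Zeb1, Snai1, Twist1, Col4a1, Col4a2, Col4a5, Lamc1, Lamc3, Thy1, Entpd2, Alb, Abcg5, Abcg8, Gstp1, Gstm1, Ces1d, Hadh, Acaa2, Acadm and Cpt1a. Some genes that these rules take in are not reported here. Some listed genes had no probe set naming 1 gene, among them C3, C4b, Cfb, Trf and Loxl2.

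Promoters were the first start listed per symbol in RefSeq, build GRCm38.p6, and 8 motifs were searched on both strands. Only the calling rule was run on simulated data, whole liver values with added noise and shifts. This checks the code and says nothing on the error of these arrays. Alternatives were a repeated quantile normalization, arrays centred on one median, a minimum level at the 75th percentile or none, averaging the probe sets of a gene, dropping probe sets with suffixes for shared transcripts, the second table and a 2-fold rule. Python 3.11.15, numpy 2.4.6, pandas 2.3.3 and matplotlib 3.10.9 were used.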

Additional observations from a re-analysis of the deposited data

Results flagged for a closer look

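Probe sets outside the gene counts also carried signal above whole liver. Of 5746 probe sets that name no gene, 1149 (20.0%) were 4-fold higher in MC and 84 (1.46%) lower, against 8.11% and 10.7% of the 38011 that name 1 gene, and 39.6% of them reached the array median in MC against 16.8% in whole liver. Against the same whole liver array the number higher was 1086 for HSC, 769 for VitaminA-GFP+ cells and 427 for MC of biliary fibrosis. Of 1280 probe sets that name several genes, 87 were higher in MC and 118 lower.

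The array's control probe sets for dispersed repeats were higher in MC. The B1 repeat probe set had 5959 in MC and 1198 in whole liver, a log2 difference of 2.31. The B2 repeat probe set had 18292 in MC and 9100.3 in whole liver, a difference of 1.01, and a second B2 probe set had 897 in MC and 208 in whole liver, a difference of 2.11. The B1 probe set had 4747 in HSC and between 1150 and 1715 on the remaining 5 arrays.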

How the results depend on the processing

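The counts of 1816 higher and 2355 lower genes stayed within 1.5 times of these values under every setting tried except the 2-fold rule, which gave 3329 higher and 4595 lower because it takes smaller differences. Quantile normalization anew gave 1939 higher and 2147 lower, and centring the arrays on one median gave 1574 and 2706 and moved the median difference of all genes to -0.26. The share of higher among all calls was 43.5%, with 36.8% after that centring and 47.5% after quantile normalization. Averaging the probe sets of a gene gave 1400 and 2093, the 75th percentile as minimum level 1259 and 1729, no minimum level 1935 and 2406, and probe sets without suffixes 1680 and 2124 of 18978 genes. Of 200 list medians recomputed, 15 moved by over 0.5, and of 203 recomputed differences of named genes 17 did, all of them under the 2 probe set settings. Among genes, Rab6b had 4.32, Kcnd3 3.11, Cpe 4.35, Prr15 3.94 and Apoh -5.60 as the mean of their probe sets, and Upp2 had -3.94 without suffixed probe sets. Medians near 0 changed sign in 5 lists. The intermediate filament median was -0.11 in place of 0.41 without suffixed probe sets. Centring turned those of surface glycoproteins (0.12 to -0.09), complement regulators (0.17 to -0.05) and R-spondin and Wnt ligands (0.08 to -0.14, and -0.19 after quantile normalization), and the cholangiocyte median of 0.05 lay between -0.17 and -0.05 under those 2 settings and both probe set settings. Averaging probe sets moved the HSC marker median of -2.65 to -1.67 and that of matrix glycoproteins from 2.65 to 1.93, and the medians of fibrillar collagens (1.61 to 1.98) and endothelial markers (-1.99 to -1.79) also fell under 4-fold under some settings. No gene named among the 20 largest of either direction changed sign. No paired analysis was possible because each group is 1 array, and for the same reason no replicate could be left out. Brightness limits the lower side of each difference, since no detection calls are given.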

Other observations

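Several groups were listed only after the values had been seen, so their counts describe and support nothing. Myl7 and Kcnd3, best known from the heart, were among the 20 largest positive differences, and of 17 genes of heart muscle contraction and excitation 3 were higher in MC and 0 lower, the other one being the potassium channel Kcnd2 (95.9 in MC and 22.6 in whole liver, 2.09). The median of the 17 was 0.21, and 11 of them lay below the array median on both arrays. The cardiac myosin heavy chain Myh6 had 5.2 in MC and 10.1 in whole liver and the other atrial light chain Myl4 had 31.1 in MC and 60.8 in whole liver.

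Prostanoid genes went both ways, with 4 of 16 higher and 4 lower. Prostacyclin synthase, Ptgis, had 7951 in MC and 101 in whole liver (6.3), and the cyclooxygenases Ptgs1 (2736 in MC and 516 in whole liver, 2.41) and Ptgs2 (139.6 in MC and 9.72 in whole liver, 3.84) and the receptor Ptger3 (4.44) were higher. Lower were Ptges2 (-3.11), Ptger2 (-2.85), Tbxas1 (-2.23) and Hpgd (-2.11). The prostacyclin receptor Ptgir had 8.42 in MC and 15.9 in whole liver and was not called.

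In the YAP and TEAD pathway, which senses tension, 6 of 15 genes were higher and 0 lower, with a median of 1.88. The cofactor Vgll3 had 1874 in MC and 29 in whole liver (6.02) and the kinase Lats2 had 4122 in MC and 500.0 in whole liver (3.04), while Yap1 had 1896 in MC and 1606 in whole liver (0.24). Of 18 Hedgehog and Notch genes 5 were higher and 1 lower, with a median of 0.55. No Notch gene was called. Notch3 (-2.49), Notch1 (-1.51), Hey1 (-1.43), Dll4 (-1.37), Hes1 (-1.34) and Heyl (-1.2) had negative differences, with Notch3 and Heyl below the median of both arrays. Jag2 (0.99), Notch2 (0.9), Jag1 (0.89) and Dll1 (0.11) had positive ones. The called genes were all of the Hedgehog pathway. The transcription factors Gli2 (423 in MC and 6.33 in whole liver, 6.06), Gli3 (3.47) and Gli1 (2.17), the signal transducer Smo (3.28) and the coreceptor Gas1 (3.78) were higher, and the Hedgehog antagonist Hhip (11 in MC and 93.6 in whole liver, -3.09) was lower. Of 6 genes of antigen presentation on MHC class II 0 were higher and 1, H2-DMa (-2.55), was lower, and the invariant chain Cd74 had 1996 in MC and 1552 in whole liver (0.36).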
